A study of Mus musculus with 10 samples.

Results

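The 10 genes described here encode transporters that carry organic anions, bile acids, and drugs across the hepatocyte membrane. They were chosen by symbol, with earlier results of these data known. All 10 were found by their Ensembl identifiers among the 21939 genes of the deposited table. All 10 also had at least 10 counts summed over the libraries and were tested with the other genes, 13641 in total. The table holds hepatocytes from 10 male mice, 8 to 9 weeks old, with 1 library per mouse. The labels give 4 genotypes, control and DKO with 3 mice each and Nrf2 KO and p65 KO with 2 mice each. Every mouse, the C57BL6/j controls included, received AAV8Cre, an adeno-associated virus with Cre under the hepatocyte-specific promoter of the thyroxine-binding globulin gene. The Nrf2 KO mice carried Nrf2 flox/flox alleles, the p65 KO mice p65 flox/flox alleles, and the DKO mice both. Hepatocytes were isolated 12 days after the injection by Liberase perfusion, slow centrifugation, and a Percoll step, without any toxin or other treatment. The controls carried no floxed alleles, and the study's methods give all mice one genetic background.

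Uptake of organic anions from the portal blood runs through the OATP family (Slco genes) at the basolateral membrane. Within the cell, drugs and conjugates with glutathione, glucuronate, or sulfate leave through ATP-driven pumps. Abcc2 (also known as Mrp2), Abcg2 (also known as Bcrp), and Abcb1a (a P-glycoprotein for hydrophobic drugs) pump into bile across the canalicular membrane. Abcc3 and Abcc4 (also known as Mrp3 and Mrp4) pump back into the blood across the basolateral membrane. Nrf2 is a transcription factor of the oxidative and electrophile response whose known targets include conjugating enzymes and several of these pumps, and p65 is a subunit of NF-κB, a mediator of inflammatory signalling.

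The genotype was first examined in the targeted genes. Nfe2l2, the gene for Nrf2, had 2318, 1991, and 1990 normalized counts in the control libraries, 4739 and 5005 in those labelled Nrf2 KO, and 4111, 3434, and 5240 in those labelled DKO. A normalized count is the deposited estimated count scaled by the effective library size. The total for this gene was therefore higher, not lower, in the libraries labelled Nrf2 KO (log2 fold change 1.21, SE 0.156, edgeR adjusted p = 0.00488) and DKO (1.02, SE 0.143, adjusted p = 0.00347). Rela, the gene for p65, had a log2 fold change of -0.07 (SE 0.138, edgeR adjusted p = 0.765) in p65 KO. The table gives 1 total per gene and does not separate deleted exons, so these values do not check the labels, and the genotype names below are those of the labels. Hepatocyte markers dominated every library, with 3552033 to 5628755 normalized counts summed over 8 genes. Total counts per library ranged from 33707165 to 49897382.

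In control hepatocytes the 10 transporters covered a wide range of levels. Per kilobase of the canonical transcript, Slco1b2 had 5800 ± 300.3 normalized counts (SD, n = 3) and Slco1a1 had 4949 ± 347 (SD, n = 3), and their libraries did not overlap, from 5559 to 6136 and from 4562 to 5231. Abcc2 followed at 2169 ± 121 (SD, n = 3) and Abcc3 at 1969 ± 201 (SD, n = 3), and these neighbours overlapped. Slco2b1 had 975 ± 139 (SD, n = 3), Abcg2 had 698 ± 108 (SD, n = 3), Abcc6 had 594 ± 60.5 (SD, n = 3), and Slco1a4 had 415 ± 194 (SD, n = 3) per kilobase, and the libraries of each overlapped those of the next in this order except Slco2b1 and Abcg2. Abcb1a and Abcc4 were far lower, at 12.1 ± 1.59 and 2.64 ± 0.891 per kilobase (SD, n = 3). Of all genes tested, 97.2% had a lower level per kilobase than Slco1b2 and 15.6% had a lower one than Abcc4. The main uptake carriers and the canalicular pump Abcc2 were thus among the more abundant transcripts of these cells, whereas Abcb1a and Abcc4 rested on few reads, between 28 and 159 and between 9 and 49 estimated counts per library.

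**Figure D1:**
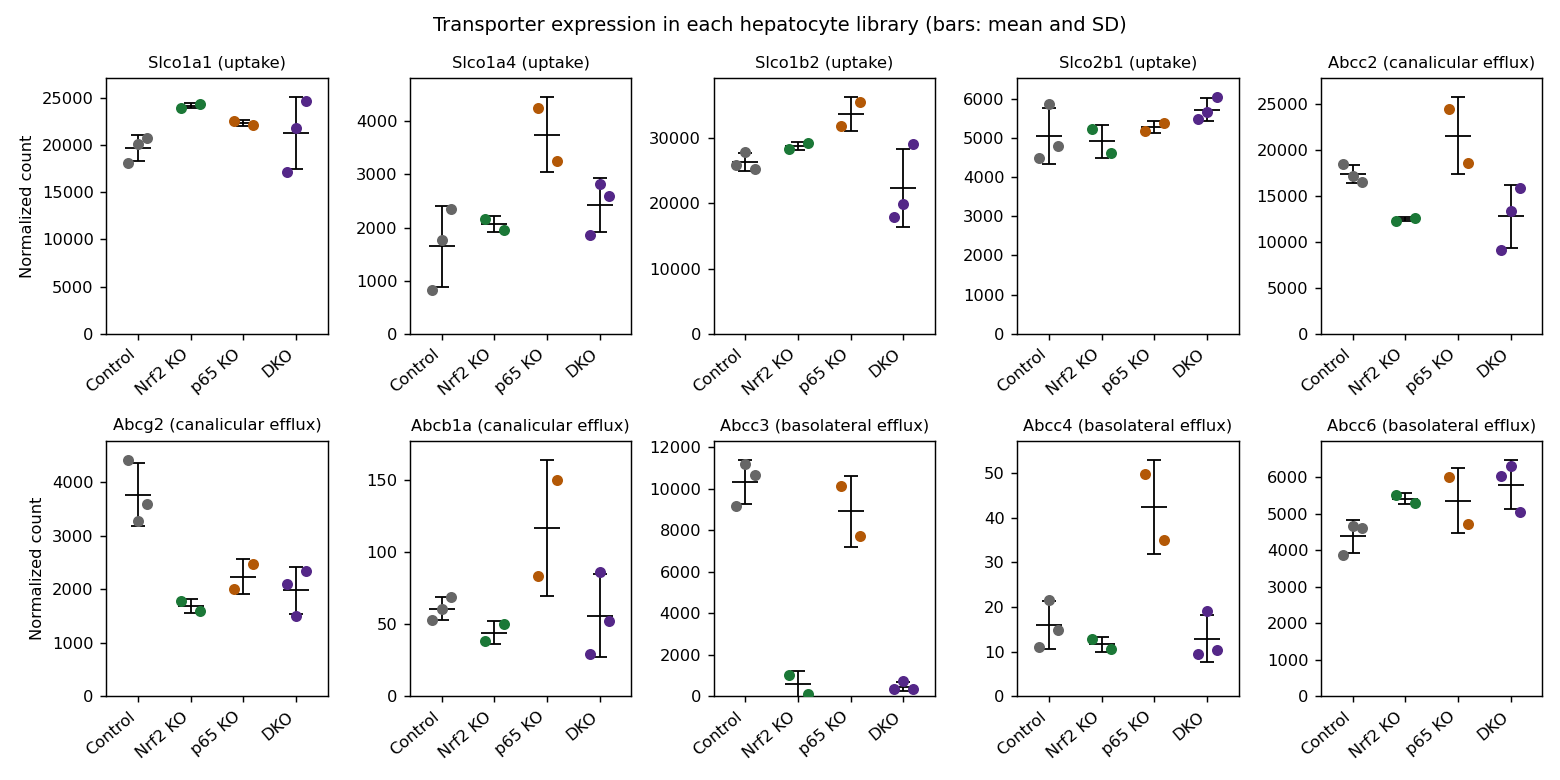
Normalized counts (vertical axes, linear and starting at 0) of the 10 transporters in each library, grouped by genotype, where points are mice and bars give the mean and SD (n = 3, 2, 2, and 3). Abcc3 has at most 1048 normalized counts in the Nrf2 KO and DKO libraries and at least 7721 in the others. Abcg2 is lower in every knockout library than in every control library, and Slco1a4 is highest in the 2 p65 KO libraries.

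The largest difference concerned Abcc3, a basolateral pump for glucuronide conjugates and bile acids, which lies on chromosome 11 from 94233874 to 94283823 (GRCm39, minus strand). It had 9159, 11190, and 10670 normalized counts in the control libraries and 10123 and 7721 in p65 KO. It had 1048 and 137 normalized counts in Nrf2 KO and 337, 727, and 352 in DKO. All 5 libraries without Nrf2 by their labels were thus below all 5 with it, and the 2 Nrf2 KO libraries lay further apart than the 3 DKO libraries.

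Against control, Abcc3 was 17.5-fold lower in Nrf2 KO (log2 fold change -4.13, 95% interval from -5.69 to -2.57, edgeR adjusted p = 0.0253) and 21.9-fold lower in DKO (-4.45, SE 0.605, edgeR adjusted p = 0.00304). Against p65 KO, it was 18.9-fold lower in DKO (-4.24, SE 0.622, edgeR adjusted p = 0.00860). In p65 KO its log2 fold change against control was -0.21 (95% interval from -1.50 to 1.07, edgeR adjusted p = 0.835). Between DKO and Nrf2 KO it was -0.32 (95% interval from -1.65 to 1.00, edgeR adjusted p = 0.843), an interval that holds changes of 2-fold in either direction. The call in Nrf2 KO was close to the threshold. Without any one control library, or without either p65 KO library, its adjusted p was between 0.0507 and 0.0715, while the log2 fold change stayed between -4.21 and -4.07. With only Nrf2 KO mouse 1 it was -3.30 and with only mouse 2 it was -6.24, fits in which the lone library is assumed to vary like those of the other genotypes.

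Abcg2, the canalicular pump for sulfate conjugates and many drugs, lies on chromosome 6 from 58561505 to 58672661 (GRCm39, plus strand). It had 4409, 3276, and 3597 normalized counts in control, 1778 and 1598 in Nrf2 KO, 1999 and 2464 in p65 KO, and 2090, 1499, and 2347 in DKO. Every knockout library was below every control library, and the 3 knockout genotypes overlapped except for Nrf2 KO and p65 KO. Abcg2 was the only transporter of the 10 with an edgeR adjusted p at or under 0.05 in all 3 comparisons with control, which share the same 3 control libraries. Such a value was found for 0.726% of all genes in Nrf2 KO, for 14.9% in p65 KO, and for 5.45% in DKO. It was 2.23-fold lower in Nrf2 KO (log2 fold change -1.16, SE 0.197, edgeR adjusted p = 0.0253), 1.68-fold lower in p65 KO (-0.75, SE 0.194, adjusted p = 0.0277), and 1.90-fold lower in DKO (-0.93, SE 0.172, adjusted p = 0.0138). The last 2 values passed the adjusted p but not the fold limit of 1 on the log2 scale that a call also required here. Without Nrf2 KO mouse 1 or 2, its adjusted p in that comparison was 0.174 or 0.395, at log2 fold changes of -1.23 and -1.08, and without any one control library it was between 0.0507 and 0.0856. In p65 KO, its edgeR adjusted p stayed at or under 0.05 in 13 of 18 alternatives and was 0.204 without p65 KO mouse 1 (log2 fold change -0.61), 0.0528 without mouse 2, 0.0879 without control mouse 1, 0.0647 with the replicate block, and 0.0569 with equal library totals. In DKO it was 0.0594 without control mouse 1 and at or under 0.05 in the other 17.

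Abcc2, which exports bilirubin glucuronides and glutathione conjugates into bile, lies on chromosome 19 from 43770631 to 43829179 (GRCm39, plus strand). It had 18467, 17211, and 16561 normalized counts in control, 12323 and 12611 in Nrf2 KO, 24537 and 18595 in p65 KO, and 9096, 13396, and 15921 in DKO. All Nrf2 KO and DKO libraries were below all control libraries, and both p65 KO libraries were above them. None of these differences passed the test. The log2 fold change was -0.48 in Nrf2 KO (SE 0.207, edgeR adjusted p = 0.493), 0.31 in p65 KO (SE 0.203, adjusted p = 0.326), and -0.44 in DKO (SE 0.183, adjusted p = 0.183). DKO against p65 KO gave -0.75 (SE 0.202, edgeR adjusted p = 0.0642). In that comparison, 4 of 18 alternatives gave an adjusted p at or under 0.05. It was 0.00719 with DESeq2, and with edgeR 0.0139 for equal library totals and 0.0357 without DKO mouse 3.

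The third canalicular pump, Abcb1a, extrudes hydrophobic drugs and lies on chromosome 5 from 8710022 to 8798575 (GRCm39, plus strand). It had 53.0, 61.0, and 69.1 normalized counts in control, 38.6 and 50.1 in Nrf2 KO, 83.3 and 150.3 in p65 KO, and 29.5, 86.4, and 52.6 in DKO. Its p65 KO libraries were above control, at a log2 fold change of 0.93 (SE 0.414, edgeR adjusted p = 0.148) that did not pass the test. Of its transcript sequence, 22.9% of the stretches of 31 bases also occur in other genes, mostly in the paralog Abcb1b (21.2%), so its estimated count depends on how the authors' quantification divided shared reads.

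Among the uptake carriers, only Slco1a4, a carrier of bile acids and cardiac glycosides, passed the test in any comparison. It lies on chromosome 6 from 141751165 to 141802036 (GRCm39, minus strand). It had 822, 1771, and 2341 normalized counts in control, 2170 and 1961 in Nrf2 KO, 4248 and 3256 in p65 KO, and 1851, 2830, and 2593 in DKO. Both p65 KO libraries were above all 8 others, and the control libraries were spread over a wide range, with mouse 1 far below the other 2. Slco1a4 was 2.28-fold higher in p65 KO than in control (log2 fold change 1.19, SE 0.332, edgeR adjusted p = 0.0373). Without control mouse 1 the log2 fold change was 0.87 (adjusted p = 0.0474), under the fold limit, and without any one of control mouse 2, the p65 KO mice, and the Nrf2 KO mice the adjusted p was between 0.0513 and 0.223. In DKO, the log2 fold change was 0.56 against control (SE 0.303, edgeR adjusted p = 0.302) and -0.63 against p65 KO (SE 0.333, adjusted p = 0.288). Of its stretches of 31 bases, 8.19% occur in other genes, and 5.54% in Slco1a5.

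Slco1b2, the main liver OATP for bilirubin and statins, lies on chromosome 6 from 141575179 to 141633546 (GRCm39, plus strand). It had 25935, 27896, and 25270 normalized counts in control, 28341 and 29196 in Nrf2 KO, 31925 and 35528 in p65 KO, and 17963, 19920, and 29117 in DKO. Both single knockouts were above control in every library, whereas 2 of the 3 DKO libraries were below all others and the third was within the range of Nrf2 KO. None of its tests passed in the fit as reported. Its log2 fold change was 0.13 in Nrf2 KO (SE 0.182, edgeR adjusted p = 0.903), 0.36 in p65 KO (SE 0.181, adjusted p = 0.206), and -0.24 in DKO (SE 0.164, adjusted p = 0.411). DKO against p65 KO gave -0.59 (SE 0.181, adjusted p = 0.0914). In that comparison, 3 of 18 alternatives gave an adjusted p at or under 0.05. It was 0.0178 with DESeq2, and with edgeR 0.0157 for equal library totals and 0.0114 without DKO mouse 3. Without DKO mouse 3, the edgeR adjusted p in DKO against control was 0.0485.

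Slco1a1, another carrier of steroid conjugates and bile acids, lies on chromosome 6 from 141853007 to 141892690 (GRCm39, minus strand). It ranged from 18105 to 20760 normalized counts in control, from 23969 to 24376 in Nrf2 KO, from 22102 to 22591 in p65 KO, and from 17165 to 24719 in DKO. Slco2b1, a carrier of sulfated steroids on chromosome 7 from 99306783 to 99360547 (GRCm39, minus strand), ranged from 4489 to 5862 in control, from 4617 to 5220 in Nrf2 KO, from 5180 to 5398 in p65 KO, and from 5476 to 6042 in DKO. Their log2 fold changes against control were between -0.04 and 0.30 and had edgeR adjusted p-values between 0.380 and 0.973. The 95% intervals of these changes had bounds between -0.32 and 0.63, so that changes up to 1.5-fold are within them.

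Abcc4, a basolateral pump for cyclic nucleotides and bile acid conjugates on chromosome 14 from 118720103 to 118943924 (GRCm39, minus strand), was rare. It had 11, 21.6, and 14.9 normalized counts in control, 12.9 and 10.5 in Nrf2 KO, 49.8 and 35.0 in p65 KO, and 9.47, 19.1, and 10.3 in DKO. Both p65 KO libraries were above all others, at a log2 fold change of 1.41 against control (SE 0.504, edgeR adjusted p = 0.0826), and DKO against p65 KO gave -1.70 (SE 0.512, adjusted p = 0.0871). Neither passed the test as reported, but DESeq2 gave the latter an adjusted p of 0.0357. Abcc6, a pump known for its role in preventing ectopic calcification, lies on chromosome 7 from 45616979 to 45679859 (GRCm39, minus strand). It had 3868, 4675, and 4601 normalized counts in control, 5522 and 5301 in Nrf2 KO, 5994 and 4723 in p65 KO, and 6043, 6309, and 5038 in DKO. All 7 knockout libraries were above all control libraries, but the log2 fold changes of 0.30, 0.29, and 0.40 did not pass the test (edgeR adjusted p = 0.562, 0.192, and 0.0973). With DESeq2, the DKO change was 0.41 at an adjusted p of 0.0369, below the fold limit.

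**Figure D2:**
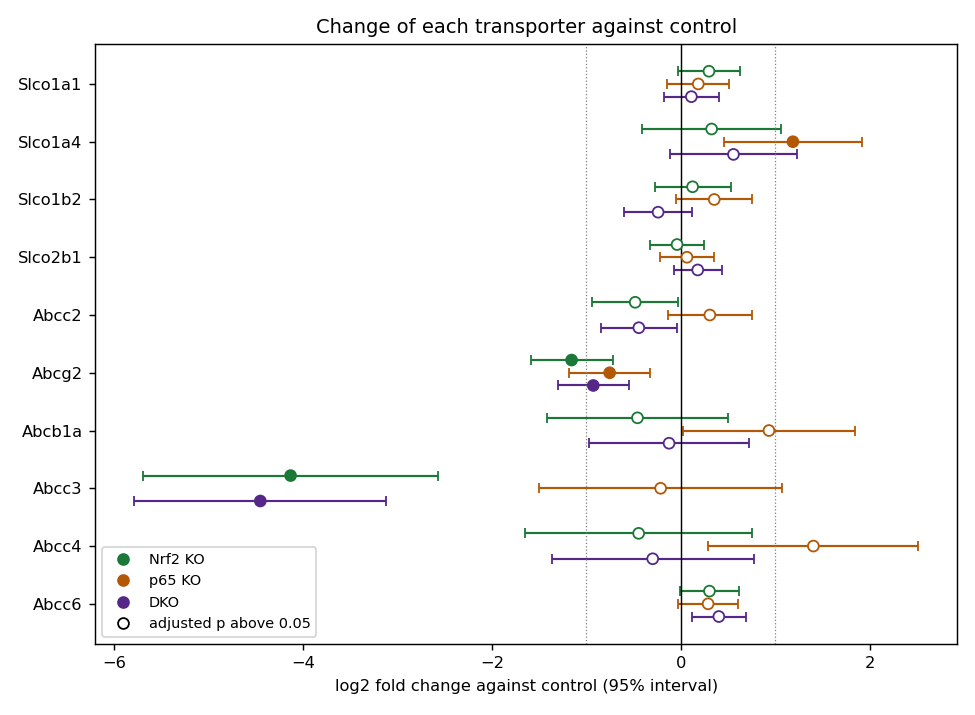
Log2 fold change of each transporter against the control libraries (horizontal axis) with its 95% interval from edgeR, for Nrf2 KO (green), p65 KO (orange), and DKO (purple), where filled points have an adjusted p at or under 0.05 and dotted lines mark the fold limit. Abcc3 stands at -4.13 in Nrf2 KO and -4.45 in DKO, Abcg2 lies between -1.16 and -0.75 in all 3 genotypes, and Slco1a4 stands at 1.19 in p65 KO.

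Promoter sequences, with 250 bases before the start of transcription, are shown for Slco1a4 and for Abcc2, which passed no test in the fit as reported. The RefSeq table of promoters (GRCm38.p6) lists a single start for both. It also lists a single start for Slco1a1, Slco1b2, and Abcb1a, which are not shown. The table held 13 promoters of 8 of the 10 members, and Abcc3 and Abcc6 were not among them. The core of the antioxidant response element that Nrf2 binds, searched as TGACNNNGC on both strands within 250 bases before and 50 after each start, occurred in 12.4% of 32851 promoters. It occurred in 4 of the 13 member promoters, 1 of Abcc2, 1 of Abcb1a, and 2 of Abcc4. The Abcc2 match, TGACATAGC, lay 98 to 90 bases before the start and is in capitals. The NF-κB consensus occurred in 4.51% of promoters and in 1 of the 13, a second start of Abcg2. These build positions differ from the GRCm39 positions above.
Abcc2 (chr19:43782058-43782307, plus strand): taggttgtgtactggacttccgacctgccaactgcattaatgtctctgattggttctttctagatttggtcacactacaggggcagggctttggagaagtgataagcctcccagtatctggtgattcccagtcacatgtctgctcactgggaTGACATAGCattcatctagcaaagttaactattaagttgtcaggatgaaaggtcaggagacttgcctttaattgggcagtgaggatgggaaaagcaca
Slco1a4 (chr6:141856221-141856470, minus strand): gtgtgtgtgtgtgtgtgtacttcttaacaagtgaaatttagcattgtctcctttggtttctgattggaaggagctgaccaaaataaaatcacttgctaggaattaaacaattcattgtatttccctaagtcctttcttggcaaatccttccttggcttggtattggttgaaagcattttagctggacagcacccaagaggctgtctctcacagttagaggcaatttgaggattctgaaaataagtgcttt

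The shares below are a description, since the 10 transporters were chosen with earlier results of these data known. In Nrf2 KO, 2 of the 10 transporters were called, both lower, where 0.550% of all genes tested were called in either direction. The libraries of 7 transporters did not overlap with control, 4 of them lower and 3 higher, against 28.5% of all genes. The median log2 fold change was -0.24 over the 10 transporters and 0.0018 over all genes. In p65 KO, 1 of 10 was called, higher, against 6.59% of all genes, and the libraries of 8 did not overlap with control. Of these, 7 were higher, against 26.2% of all genes, and 1 was lower, against 23.8%. The median log2 fold change there was 0.30 over the transporters and 0.0009 over all genes. In DKO, 1 of 10 was called, lower, against 2.38% of all genes, and 4 did not overlap with control against 26.5% of all genes, with a median log2 fold change of -0.18 over the transporters and 0.025 over all genes. The share called in p65 KO was thus near that of all genes, so the count of 1 there is no result about these transporters.

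The p65 KO libraries also held more RNA of cells other than hepatocytes. All 9 markers of Kupffer cells and macrophages were called higher in p65 KO than in control, and their summed normalized counts were between 3523 and 4915 in p65 KO, between 285 and 766 in control, between 209 and 626 in Nrf2 KO, and between 1276 and 2327 in DKO. All 6 markers of sinusoidal endothelial cells were called higher in p65 KO (sums from 2263 to 3063, against 451 to 955 in control), and 5 of 6 of stellate cells (sums from 1454 to 1459, against 131 to 322). In DKO, 3 of 9 Kupffer cell, 1 of 6 endothelial, and 1 of 6 stellate markers were called higher, and none was called in Nrf2 KO. None of the tested markers of cholangiocytes (3 of 5 listed), T and NK cells (4 of 5), B cells (2 of 4), neutrophils (3 of 4), or erythroid cells (5 of 5) was called in a comparison with control. The T and NK cell, B cell, and neutrophil lists each summed to at most 24.2 normalized counts in any library. With so few counts, the lack of a call does not show that these cells were unchanged. Col1a1 was at 0 in every control library, Krt19 and Krt7 in every p65 KO library, and Krt19 in every DKO library. Slco1a4, Abcc4, Slco1b2, and Abcc2 were higher in both p65 KO libraries, which had the highest sums, than in all 8 others, and the part of other cells in these levels was not tested. In DKO, the Kupffer cell sums were also above those of control. The same transporters had log2 fold changes there of 0.56 (Slco1a4), -0.30 (Abcc4), -0.24 (Slco1b2), and -0.44 (Abcc2). In such bulk samples, fewer cells of a type and less RNA per cell cannot be told apart.

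The effect of Nrf2 loss on a background without p65 was read from DKO against p65 KO. Abcc3 was the only transporter of the 10 called, against 1.78% of all genes, and 6 of 10 did not overlap between these genotypes, against 38.6% of all genes. Of these 6, Abcc3, Abcc4, Abcc2, Slco1b2, and Slco1a4 were lower in DKO and Slco2b1 was higher. The median log2 fold change was -0.61 over the transporters and 0.0003 over all genes. This comparison and that of p65 KO with control share the 2 p65 KO libraries, which were high for several transporters. In DKO against Nrf2 KO, none of the 10 was called by edgeR or by DESeq2, none had an unadjusted p under 0.05, and 0.433% of all genes were called by edgeR. Only Slco2b1 did not overlap there, against 32.2% of all genes.

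Whether loss of Nrf2 had a different effect with and without p65 was tested by the interaction, the log2 fold change of DKO against p65 KO minus that of Nrf2 KO against control. None of the 10 transporters passed it with edgeR, against 0.455% of all genes called, and 2 had an unadjusted p under 0.05. For Abcg2, the Nrf2 KO and p65 KO log2 fold changes sum to -1.91, the DKO change was -0.93, and the difference of 0.98 had an SE of 0.273 (edgeR adjusted p = 0.164, from an unadjusted 0.00427). For Slco1b2, the sum was 0.48, the DKO change was -0.24, and the difference was -0.72 (SE 0.257, edgeR adjusted p = 0.257, from an unadjusted 0.0172). Without DKO mouse 3, this difference was -0.95 (edgeR adjusted p = 0.0404), below the fold limit. For Abcc3, the sum of -4.35 and the DKO change of -4.45 were close, but the interval of the difference, from -1.95 to 1.74, was wide. DESeq2 gave an adjusted p of 0.0290 for Abcg2, at a difference below the fold limit, and called no transporter either.

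**Figure D3:**
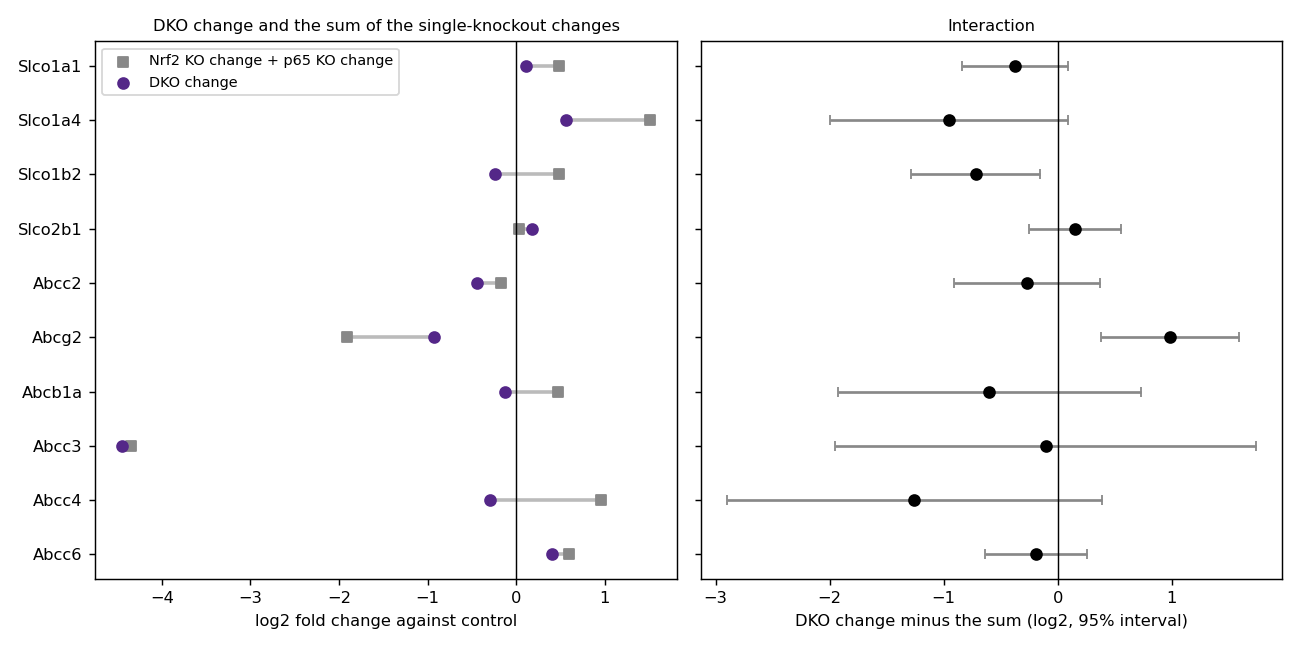
Left, the DKO log2 fold change against control (purple circles) beside the sum of the Nrf2 KO and p65 KO changes (grey squares) for each transporter. Right, the DKO change minus that sum, with its 95% interval from edgeR, which lies above 0 for Abcg2 and below 0 for Slco1b2 before adjustment over all genes, and holds 0 for the other 8.

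Other genes of the same transporter families were examined for context, by symbols that start with Abcb, Abcc, Abcg, Slco, Slc10a, Slc22a, Slc47a, or Slc51. The table held 69 such genes, of which 45 were tested. Of all genes, 0.550% were called in Nrf2 KO and 2.38% in DKO. In Nrf2 KO, 1 was called, Abcc12, which had 20, 24, and 30 estimated counts in control, 0 and 1 in Nrf2 KO, 35 and 17 in p65 KO, and 1, 2, and 1 in DKO. It was called lower in Nrf2 KO (edgeR adjusted p = 0.0253) and DKO (adjusted p = 0.0113), and the ratio of control to Nrf2 KO was 55.6, with a 95% interval from 9.67 to 2225 that covers counting error only. Like Abcc3, Abcc12 was lower in all 5 libraries labelled Nrf2 KO or DKO than in all 5 others.

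In p65 KO, 4 of the 45 genes were called higher and none lower, a share near the 6.59% of all genes called there: Abcc9 (log2 fold change 3.57, edgeR adjusted p = 0.00212), Abcc1 (2.69, 0.0478), Slco3a1 (2.45, 0.0266), and Abcc5 (1.91, 0.0312). Abcc9 encodes a regulatory subunit of a potassium channel known from vascular and mural cells, and all 4 were rare, at no more than 128 normalized counts in any library. In DKO, Slc10a2, the apical sodium-dependent bile acid transporter, was called higher, at 1264, 2042, and 2200 normalized counts against 735, 705, and 775 in control (log2 fold change 1.31, edgeR adjusted p = 0.00704). Its libraries did not overlap between the 2 genotypes. Among abundant canalicular transporters, Abcb11, the bile salt export pump, was 1.5-fold lower in p65 KO (log2 fold change -0.59, edgeR adjusted p = 0.0185). Abcb4, the phospholipid floppase, was 1.36-fold lower in p65 KO (-0.44, adjusted p = 0.0198) and 1.48-fold lower in DKO (-0.57, adjusted p = 0.00784). Abcg5 and Abcg8, the subunits of the sterol exporter, were 1.58-fold and 1.68-fold lower in DKO (-0.66 and -0.75, edgeR adjusted p = 0.0131 and 0.0168), below the fold limit.

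Known Nrf2 targets and transporter regulators were set beside the pumps. Of 10 Nrf2 targets, 4 were called lower in Nrf2 KO (Gclc, Srxn1, Gstm1, and Gstm3) and 6 in DKO, which added Nqo1 and Me1. In p65 KO, Gclc, the catalytic subunit of glutamate-cysteine ligase, was called lower and Hmox1, heme oxygenase 1, higher. Of all genes, 0.550% were called in Nrf2 KO, 2.38% in DKO, and 6.59% in p65 KO, in either direction. Gstm1, a glutathione transferase, was 7.78-fold lower in Nrf2 KO (log2 fold change -2.96, SE 0.223, edgeR adjusted p = 0.000219) and 9.67-fold lower in DKO (-3.27, SE 0.192). The list median was -1.16 in Nrf2 KO, -1.35 in DKO, and -0.29 in p65 KO, against 0.0018, 0.025, and 0.0009 over all genes.

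Of 11 transporter regulators, Nr1i3, the constitutive androstane receptor (CAR), which is known to control several of these transporters, was the only one called in Nrf2 KO or DKO against control. It had 4301, 4522, and 4679 normalized counts in control, 1966 and 1892 in Nrf2 KO, 6446 and 5794 in p65 KO, and 1329, 1384, and 2148 in DKO. The log2 fold changes were -1.22 in Nrf2 KO (SE 0.188, edgeR adjusted p = 0.0172) and -1.47 in DKO (SE 0.166, adjusted p = 0.00133). The genotypes did not overlap except for Nrf2 KO and DKO. In p65 KO, Nr0b2, the small heterodimer partner, was called lower (-1.16, edgeR adjusted p = 0.0266) and Ahr, the aryl hydrocarbon receptor, higher (1.01, adjusted p = 0.0498), and Ppara, the fatty acid receptor, was called lower in DKO against p65 KO (-1.16, adjusted p = 0.0339). Nr1i2, the pregnane X receptor, was not called in any comparison. The shares of all genes called were 0.550% in Nrf2 KO, 6.59% in p65 KO, 2.38% in DKO, and 1.78% in DKO against p65 KO.

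**Figure D4:**
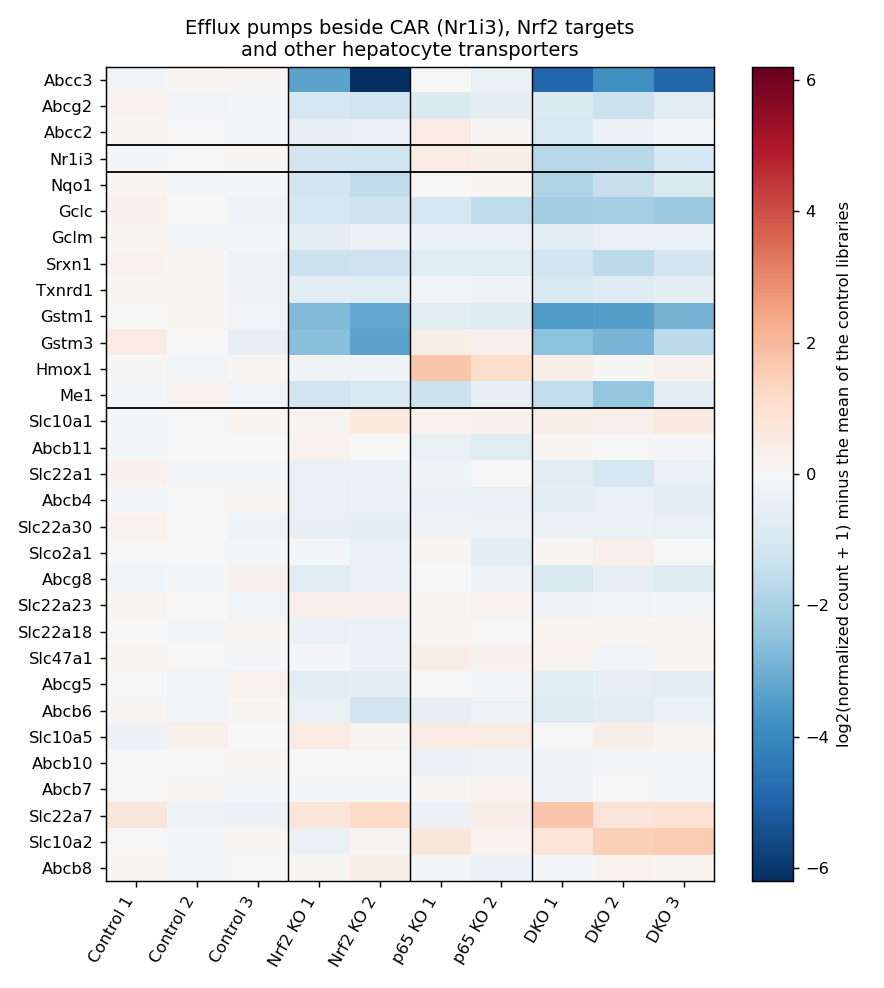
Log2(normalized count + 1) minus the mean of the 3 control libraries (colour) for Abcc3, Abcg2, and Abcc2, CAR (Nr1i3), the 9 Nrf2 targets whose mean reached 50 normalized counts, and the 18 other transporter family genes whose mean reached 1000, in each of the 10 libraries. Blue in the Nrf2 KO and DKO columns marks lower values of Abcc3, Nr1i3, Gstm1, and Gstm3, down to -6.23 for Abcc3 in Nrf2 KO mouse 2.

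Several of these transporters are known to differ between male and female mouse liver, with Slco1a1 predominant in males and Slco1a4 in females. Of 5 male-biased liver genes, 2 were called lower in p65 KO (Cyp4a12a and Elovl3) and 3 in DKO, which added Hsd3b5, and none in Nrf2 KO. Of 9 female-biased genes 7 were tested, and 2 were called higher in p65 KO (Cyp2a4 and Cyp2b13) and 1 in DKO (Cyp2a4). Of all genes, 6.59% were called in p65 KO and 2.38% in DKO. The p65 KO median log2 fold change was -0.50 for the male-biased and 1.25 for the female-biased genes, against 0.0009 over all genes. The DKO medians were -1.33 and 0.37, against 0.025 over all genes. Apart from Cyp2a4, the tested female-biased genes had no more than 29.7 normalized counts in any library. The female-biased medians are values of such rare genes, A1bg in p65 KO and Cyp3a44 in DKO. The call of Cyp2b13 rests on 13.2 and 6.62 normalized counts in p65 KO against 0 in every control library. Cyp2a4, a steroid hydroxylase with a near-identical paralog, had 8.83, 4.92, and 47.6 normalized counts in control, 18096 and 17985 in p65 KO, 1648, 5039, and 11.4 in DKO, and 2.97 and 0.808 in Nrf2 KO. Slco1a1 was not lower in p65 KO, where both of its libraries were above control (log2 fold change 0.19, SE 0.149, edgeR adjusted p = 0.421).

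Across the 10 libraries, the genes whose log2 normalized counts ran most like those of 9 members were listed among the 10181 genes whose mean normalized count reached 50, a level that Abcc4 did not reach. The 10 libraries share their genotypes, and the correlations are given as a description. For Abcc3 they were Gsta13 (Pearson r = 0.954), Aox1 (0.953), and Gstm1 (0.948), and for Abcg2 Scpep1 (0.962), Nt5dc2 (0.957), and Cyp4a12b (0.947). For Slco1a4 they were Map2k7 (0.949), Il6ra (0.945), and Mt1 (0.934), for Abcc2 Sec24d (0.953), Ibtk (0.946), and Crtap (0.945), and for Slco1b2 Cyp2e1 (0.938), Cyp2c67 (0.912), and Rnf13 (0.903). For Abcc6 they were Mark2 (0.966), Tnrc18 (0.953), and Grk3 (0.939), for Slco1a1 Cyp4f14 (0.939), Pde8a (0.930), and Cyp46a1 (0.913), for Slco2b1 Mid2 (0.976), Rbm26 (0.971), and Mlkl (0.931), and for Abcb1a Bnip3 (0.957), Man1a2 (0.950), and Sar1a (0.948). Among the members themselves, Abcg2 and Abcc6 ran most against each other (r = -0.876 over 10 libraries), and Abcb1a with Abcc4 (0.775) and Abcc2 with Abcc3 (0.760) ran most alike.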

How the data were processed

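RNA of freshly isolated hepatocytes was sequenced as poly(A)-selected, stranded TruSeq libraries. The authors quantified the reads with Salmon 1.10.3 (per the labels, GRCm39; GENCODE M33 by the study's methods) and deposited 1 table of gene-level estimated counts in whole numbers. Although the table is named as normalized, its totals and size factors differed between libraries, and it was used as estimated counts. The 10 columns were matched to mice by name, and 0 columns were left over. The authors' own test used DESeq2 1.42.1.

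Genes with at least 10 counts in total went into the quasi-likelihood test of edgeR 4.0.16 (R 4.3.3) with TMM scaling. All 4 genotypes entered 1 fit, because 2 of them have 2 mice, and Benjamini-Hochberg adjustment was made over the 13641 genes of each comparison. Genes were called at an adjusted p up to 0.05 where the log2 fold change also reached 1 or -1. Alternatives were DESeq2 1.42.0, other scalings and filters, a block for the replicate number, fits of the compared genotypes alone, and omission of single libraries. Simulated counts were scored by the adjusted p alone, without the fold limit, and the changed genes had a mean of at least 50 counts. There, edgeR recovered 95.5% of 4-fold, 61.2% of 2-fold, and 10.4% of 1.5-fold changes in the design of Nrf2 KO against control. Among 13503 genes tested, 5 unchanged genes also passed. Replicates differed by more than sampling noise (chi-square per degree of freedom from 44.8 to 204).

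Gene names, positions, and transcript lengths came from GENCODE M39 (GRCm39), which held 21926 of the 21939 identifiers, and promoters from RefSeq (GRCm38.p6). Plots were made in Python 3.11.15 with matplotlib 3.10.9. The members and all gene lists were chosen with earlier results of these data known. Named genes were the members, the targeted genes, fixed lists of Nrf2 targets, regulators, sex-biased genes, and cell type markers, other transporters with an adjusted p at or under 0.05 in a comparison with control, and the 3 genes most like each member with a mean of 50 normalized counts or more.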

Additional observations from a re-analysis of the deposited data

How the results depend on the processing

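Of 1070 values of single transporters under 18 alternatives, 1022 kept their direction and were called or not called as before. Of the rest, 21 reversed, 20 lost a call, and 7 gained one. The adjusted p alone crossed 0.05 in further cases that kept direction and call. For Abcg2 in p65 KO, all 18 alternatives kept both, but only 13 had an adjusted p at or under 0.05. The calls of Abcc3 in DKO, against control and against p65 KO, were kept under all 18. The cause of the other changes was not tested.

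Correlations of same-numbered deviations between genotypes ranged from -0.232 to 0.113, with 1 of 13 above 0.1. In genotypes with 2 mice, the deviations from the genotype mean mirror each other. These correlations therefore cannot decide whether the replicate numbers pair the mice. With the replicate block, the transporters called in Nrf2 KO went from 2 to 0 (edgeR adjusted p = 0.0644 for Abcc3 and Abcg2). All genes called in DKO against Nrf2 KO went from 59 to 37, Abcc2 there to -0.045, and the Abcc3 interaction to 0.28.

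With only the genotypes compared, 1 transporter was called in Nrf2 KO, with Abcc3 at an adjusted p of 0.0596, and 0 in p65 KO, and all genes called were 215 in DKO, 105 in DKO against p65 KO, and 18 in DKO against Nrf2 KO. DESeq2 called 135 genes in Nrf2 KO, 534 in DKO, 453 in DKO against p65 KO, 296 in DKO against Nrf2 KO, and 249 in the interaction, against 75, 325, 243, 59, and 62 by edgeR, and 2 transporters in DKO against p65 KO (Abcc4 at -1.73, adjusted p = 0.0357). Without a filter, 112 genes were called in DKO against Nrf2 KO and 137 in the interaction.

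Equal library totals moved the median of all genes by 0.18 in p65 KO, -0.27 in DKO against p65 KO, and -0.27 in the interaction. They called 2 transporters in DKO (Abcg2 at -1.02) and 3 in DKO against p65 KO (Abcc2 at -1.02 and Abcc4 at -1.96), and 504 and 118 genes in DKO against p65 KO and the interaction. The share of called genes that were higher went from 57.2% to 46.4% in DKO, from 45.7% to 17.1% in DKO against p65 KO, and from 58.1% to 22.9% in the interaction. Reversed were Slco2b1 (-0.15) and Abcc6 (-0.15) in DKO against p65 KO, Abcc2 in DKO against Nrf2 KO (-0.055), and the Slco2b1 interaction (-0.12).

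Leaving out 1 library gave 0 to 2 transporters called in Nrf2 KO, 0 to 1 in p65 KO, 1 to 2 in DKO, and 0 to 1 in the interaction (Abcg2 without DKO mouse 2, 1.15, edgeR adjusted p = 0.0477). All genes called were 18 to 84 in Nrf2 KO (lowest without Nrf2 KO mouse 2), 325 to 954 in p65 KO (lowest without p65 KO mouse 1), 147 to 316 in DKO (lowest without control mouse 1), 70 to 294 in DKO against p65 KO (lowest without p65 KO mouse 1), 18 to 81 in DKO against Nrf2 KO (lowest without Nrf2 KO mouse 2), and 8 to 119 in the interaction (without Nrf2 KO mouse 2 and DKO mouse 2). Reversed values ranged from -0.13 to 0.082 for Slco2b1 in Nrf2 KO, from -0.012 to 0.19 for Slco2b1 in p65 KO, from -0.58 to 0.19 for Abcb1a and from -0.0048 to 0.25 for Slco1a1 in DKO, from -0.049 to 0.30 for Abcc6 and from -0.19 to 0.064 for Slco1a1 in DKO against p65 KO. In DKO against Nrf2 KO they ranged from -0.14 to 0.24 for Abcc2, from -1.15 to 1.79 for Abcc3 (highest without Nrf2 KO mouse 1), from -0.12 to 0.65 for Abcb1a, and from -0.24 to 0.34 for Abcc4. The Abcc3 interaction ranged from -0.94 to 2.00.

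With 2 mice in 2 genotypes, changes near 1.5-fold were mostly not detectable, and p-values measure the spread between these mice. Abcc4, Abcb1a, and Abcc12 rest on at most 159 counts in any library.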
